A study of Canis lupus familiaris with 8 samples.

Results

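Transcripts of 10 genes of TGF-beta and activin signalling were followed in a dog kidney epithelial line held under static strain. The genes were chosen by symbol as ligands of the pathway (INHBA, INHBB, TGFB1, TGFB2), as proteins that store or activate latent TGF-beta (THBS1, LTBP1), as secreted activin antagonists (FST, FSTL3) and as intracellular inhibitors (SMAD7, SKIL). All 10 were found among the 37952 genes of the count table, and all 10 were among the 14571 genes with enough counts to be tested. The samples were 8 wells of MDCK GII cells, a canine kidney epithelial line, grown as monolayers overnight on collagen-coated silicone membranes. In 4 stretch wells the membrane was pulled to 18% strain, equally in both in-plane directions, and held there for 2 hours. The other 4 wells were labelled control. For neither group do the labels name a genotype, an allele or an added agent, so the groups differ in their labels by strain alone. The wells are described as technical quadruplicates distributed at random over several devices, so their spread, and the p-values built on it, describe wells of a single line and not independent cultures.

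TGF-beta and the activins are dimeric ligands of one family that signal through paired serine/threonine kinase receptors to the transcription factors SMAD2 and SMAD3. TGF-beta is secreted in a latent complex bound to the matrix through LTBP proteins and has to be activated outside the cell, for which integrins, proteases and thrombospondin are known routes. Activin A, a dimer of the INHBA product, is secreted in active form and is held in check by follistatin, which wraps around the ligand and hides its receptor-binding surfaces. In kidney epithelium the pathway is known for its part in growth control, tubule formation and fibrosis.

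Of the 10 genes, 3 rose in the model that pairs same-numbered wells: INHBA (1.68-fold), FST (1.46-fold) and THBS1 (1.38-fold), where 0.7% of all tested genes were called. They encode an activin subunit, the main activin antagonist and a matrix glycoprotein that can activate latent TGF-beta. Each was higher after stretch in 4 of 4 pairs, as were 8.45% of all tested genes. The genes of the TGF-beta ligands themselves, TGFB1 and TGFB2, had log2 changes of -0.02 and -0.02 in the same model, with SE of 0.09 and 0.08, and did not pass. In the model without pairing 0 of the 10 genes passed (edgeR quasi-likelihood test with Benjamini-Hochberg adjustment over all tested genes, threshold 0.05), as did 0% of all tested genes. At an unadjusted p under 0.05 there were 2 of the 10 (INHBA and THBS1), against 3.97% of all genes. Without pairing DESeq2 called 1 of the 10 (THBS1; 0.275% of all genes) and limma-voom called 0 (0% of all genes).

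The wells held 27047358 to 32478887 counts, and no well stood apart by depth. Epithelial markers were abundant, with KRT8 at a mean of 2457 CPM (normalised read counts, scaled to a common library total with TMM factors) and CDH1 at 617 CPM in control wells, while the kidney cadherin gene CDH16 was at 1.27 CPM. Of 8 fibroblast markers 4 had 0 counts in every well and of 6 leukocyte markers 4 did, among them COL1A2, COL3A1 and PTPRC. The summed level of the fibroblast list was 1.83 to 4.22 CPM in control wells and 3.16 to 3.88 CPM in stretch wells. Wells with the same number deviated together from their group means, which is why both models are given. Replicates 1 and 2 also resembled each other, as did replicates 3 and 4. Control replicates 2, 3 and 4 followed a stretch well of another number more closely than their own. A block with just 2 levels (replicates 1 and 2, replicates 3 and 4) called 0.398% of all genes and 1 of the 10 (THBS1). It is given where it changes a call. In bulk RNA, more cells that express a gene and more RNA of it per cell cannot be told apart.

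In control wells the 10 genes spanned a wide range. Per kilobase of exon, LTBP1 (148 ± 27.0 CPM per kb, mean ± SD, n = 4 control wells) and THBS1 (121 ± 7.72 CPM per kb) led, with ranges that overlapped each other and no other member. Over all 8 wells both stood above 95.8% of tested genes. FSTL3 followed at 12.6 ± 3.58 CPM per kb, then FST at 8.45 ± 3.11, SKIL at 8.30 ± 0.899, TGFB2 at 7.52 ± 1.09 and INHBA at 6.18 ± 2.04 CPM per kb. TGFB1 (4.08 ± 0.651 CPM per kb) and SMAD7 (3.76 ± 0.675) were lower. From FSTL3 down to SMAD7 the control range of each gene overlapped that of the next in this order. Well by well, FSTL3 was above FST, INHBA above TGFB1 and TGFB1 above SMAD7 in 4 of 4 control wells, whereas FST was above SKIL in 2 of 4, and SKIL above TGFB2 and TGFB2 above INHBA in 3 of 4. INHBB came last at 0.823 ± 0.273 CPM per kb, below every other member in every control well. In the raw data these control levels rest on 42 to 107 counts per well for INHBB, 324 to 866 for FST, 812 to 1635 for INHBA and 19172 to 22769 for THBS1.

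**Figure D1:**
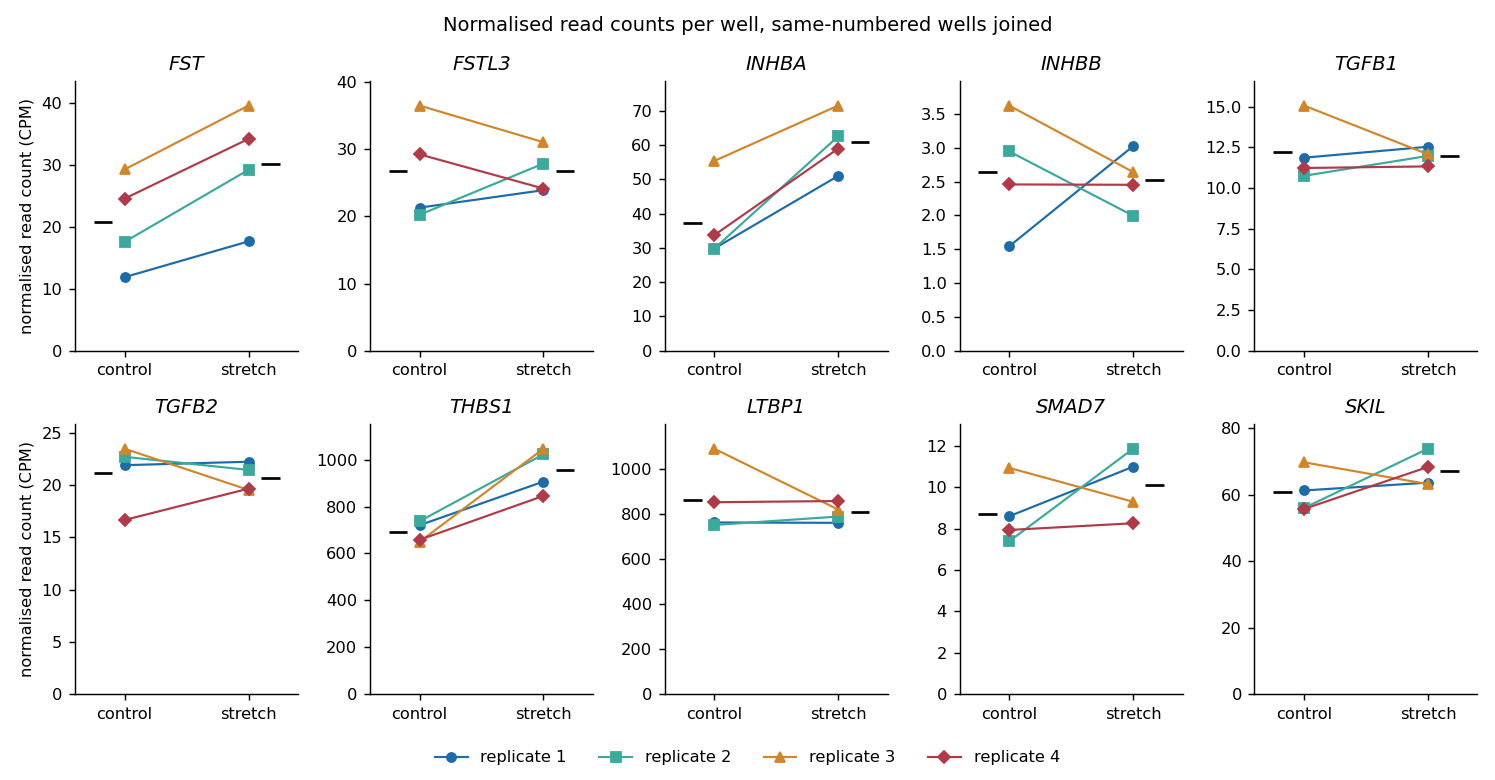
Normalised read counts (CPM, linear axis from 0, one scale per gene) of the 10 genes in each of the 8 wells, with lines joining control and stretch wells of the same number and black bars marking the group means (n = 4). The 4 lines of FST, INHBA and THBS1 all go up, while FST wells keep the order 1, 2, 4, 3 in both groups.

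INHBA, the gene of the shared subunit of activin A, lies on chromosome 18 (8385256 to 8400687, plus strand). Its control wells had 29.8, 29.8, 55.3 and 33.7 CPM (replicates 1 to 4) and its stretch wells 51.0, 62.5, 71.5 and 59.0 CPM. Control replicate 3 was above the lowest stretch well, so the groups overlapped through that well alone. The means went from 37.2 ± 12.3 to 61.0 ± 8.51 CPM (SD, n = 4 each). With the replicate block the log2 change was 0.75 ± 0.11 (SE; edgeR, adjusted p = 0.0372), and without it 0.71 ± 0.21 (edgeR, adjusted p = 0.9995). Within the pairs the log2 ratio was 0.77, 1.07, 0.37 and 0.81, and the pair with the high control well was the one with the smallest ratio. Leaving out control replicate 3 gave a log2 change of 0.97 without the block (edgeR, adjusted p = 0.0109). As this was the highest control well, leaving it out raises the change by construction. If only 2 levels were blocked INHBA did not pass (edgeR, adjusted p = 0.4), nor with the replicate block once pair 1 (0.113) or pair 4 (0.186) was left out.

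INHBB encodes the other activin beta subunit and lies on chromosome 19 (31183308 to 31188970, minus strand). It ranged from 1.54 to 3.62 CPM in control wells and from 1.99 to 3.02 CPM in stretch wells. Its log2 change was -0.04 ± 0.23 with the block (edgeR, adjusted p = 0.991), and 1 of 4 pairs was higher. In this model its SE was the widest of the 10 genes.

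TGFB1 and TGFB2 encode latent TGF-beta ligands. TGFB1, on chromosome 1 (113413527 to 113429277, plus strand), had 12.2 ± 1.95 CPM in control wells and 12.0 ± 0.497 CPM in stretch wells. TGFB2, on chromosome 38 (14128921 to 14209014, plus strand), had 21.2 ± 3.09 and 20.7 ± 1.34 CPM. For both genes the difference between the means was smaller than either SD, the groups overlapped, and the adjusted p with the block was 0.988 and 0.979 (edgeR). Their pairs were mixed, with TGFB1 higher in 3 of 4 and TGFB2 in 2 of 4. TGFB2 shares 32 bases of exon with a gene on the opposite strand that had 3 counts over all wells.

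THBS1 encodes thrombospondin-1, a secreted matrix glycoprotein, and lies on chromosome 30 (7055241 to 7071904, plus strand). Control wells had 720, 737, 649 and 658 CPM and stretch wells 906, 1023, 1047 and 845 CPM. Every stretch well was above every control well, which held for 1 of the 10 genes and for 1.3% of all tested genes in this direction. Mean levels went from 691 ± 44.0 to 955 ± 95.5 CPM (SD, n = 4 each). The log2 change was 0.46 ± 0.05 with the replicate block (edgeR, adjusted p = 0.00311) and 0.47 ± 0.07 without it (edgeR, adjusted p = 0.0937), where THBS1 ranked 3 of 14571 by p-value. With the block of 2 levels the adjusted p was 0.00561, and in DESeq2 without a block it was 2.4e-05. Replicates 1 and 2 alone gave 0.40 (edgeR, adjusted p = 0.00117), and replicates 3 and 4 alone gave 0.54 (edgeR, adjusted p = 0.0449). Leaving out pair 2 moved the blocked adjusted p to 0.0585. THBS1 shares 1156 bases of exon with FSIP1 on the opposite strand, but FSIP1 had 144 counts over all 8 wells, against at least 19172 in each well for THBS1.

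LTBP1, on chromosome 17 (26223816 to 26614580, plus strand), encodes a protein that binds latent TGF-beta to the matrix. It is the neighbour of THBS1 in level and did not pass. Control wells had 762, 750, 1089 and 852 CPM and stretch wells 760, 788, 819 and 857 CPM. Apart from control replicate 3, the wells lay between 750 and 857 CPM. The log2 change was -0.08 ± 0.09 with the block (edgeR, adjusted p = 0.901) and 0.02 ± 0.03 once pair 3 was left out (adjusted p = 0.939).

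FST encodes follistatin, which binds activin with high affinity and blocks its receptor sites, and lies on chromosome 4 (62695162 to 62701588, minus strand). Control wells had 11.9, 17.6, 29.3 and 24.6 CPM and stretch wells 17.7, 29.3, 39.6 and 34.3 CPM. The groups overlapped widely, because wells of different numbers differed by more than the groups did. Within both groups replicate 1 was lowest, then 2, then 4, and replicate 3 was highest. Group means went from 20.9 ± 7.67 to 30.2 ± 9.37 CPM (SD, n = 4 each), a difference close to the SD. The ratio within a pair was steadier, with folds of 1.49, 1.66, 1.35 and 1.39. Accordingly the log2 change was 0.53 ± 0.33 without the block (edgeR, adjusted p = 0.9995) and 0.55 ± 0.07 with it (edgeR, adjusted p = 6.1e-04), where FST ranked 6 of 14571 by p-value. With the replicate block it passed in 12 of 12 fits, including those that left out any 1 pair, and without that block in 0 of the 18 other alternatives. The block of 2 levels left an adjusted p of 0.583, and replicates 1 and 2 differed from each other in both groups.

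FSTL3, on chromosome 20 (58358373 to 58363941, minus strand), encodes a follistatin-like protein that also binds activins. Its control wells had 21.3, 20.2, 36.5 and 29.2 CPM and its stretch wells 23.9, 27.9, 31.0 and 24.1 CPM. Replicates 1 and 2 alone gave a log2 change of 0.32, and replicates 3 and 4 alone gave -0.25. Over all wells it was 0.02 ± 0.12 with the block (edgeR, adjusted p = 0.992), and its sign depended on the setting. A test of whether the change differed between these sets of wells gave an unadjusted p of 0.00725 for FSTL3 and an adjusted p of 0.71 (edgeR interaction term). This term was added with the data in view, and 0 of the 10 genes and 0% of all tested genes passed it. At an unadjusted p under 0.05 it had 833 genes, or 5.72% of those tested.

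SMAD7 and SKIL encode inhibitors inside the cell. SMAD7 occupies activated receptors and recruits ubiquitin ligases, and SKIL (SnoN) represses SMAD target genes. Both are themselves known targets of the pathway. SMAD7, on chromosome 7 (79805995 to 79834706, plus strand), had 8.59, 7.38, 10.9 and 7.93 CPM in control wells and 11.0, 11.9, 9.29 and 8.25 CPM in stretch wells. Its log2 change was 0.21 ± 0.13 with the block (edgeR, adjusted p = 0.742), with 0.52 within replicates 1 and 2 and -0.10 within replicates 3 and 4 (edgeR interaction term, unadjusted p = 0.0103, adjusted p = 0.719). SKIL, on chromosome 34 (35129073 to 35156913, plus strand), had 61.3, 56.0, 69.8 and 55.7 CPM in control wells and 63.6, 73.8, 63.2 and 68.4 CPM in stretch wells. Its log2 change was 0.15 ± 0.08 with the block (edgeR, adjusted p = 0.686), and 3 of 4 pairs were higher. SKIL passed in 1 of 30 alternatives, with the block and without pair 3, at 0.25 ± 0.06 (edgeR, adjusted p = 0.0336).

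**Figure D2:**
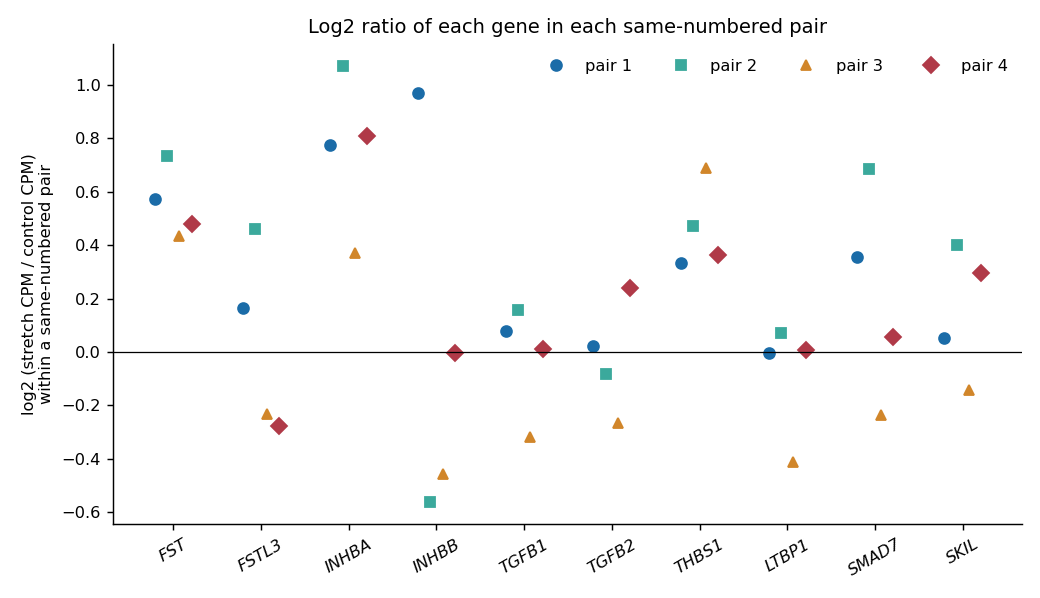
Log2 ratio of stretch CPM to control CPM in each same-numbered pair (points, 4 per gene) for the 10 genes, with the line at 0 marking no difference. FST, INHBA and THBS1 have all 4 points above 0, and pair 3 is the lowest or second lowest point for every gene except THBS1, where it is the highest.

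Read as a group, 3 of 10 genes passed with the replicate block, all higher, a direction in which 0.528% of all tested genes were called. The median log2 change of the 10 was 0.08 with the block, against -0.002 over all tested genes. Among the 40 ratios within pairs 28 were above 0, and these include every ratio of FST, INHBA and THBS1. The matching share over all tested genes is not given here, so this count has no background to be read against. Without the block 5 of the 10 genes had a log2 change above 0, as did 48.2% of all tested genes. The 10 genes were listed with earlier results of these wells known, so these counts describe them and carry no test of their own.

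**Figure D3:**
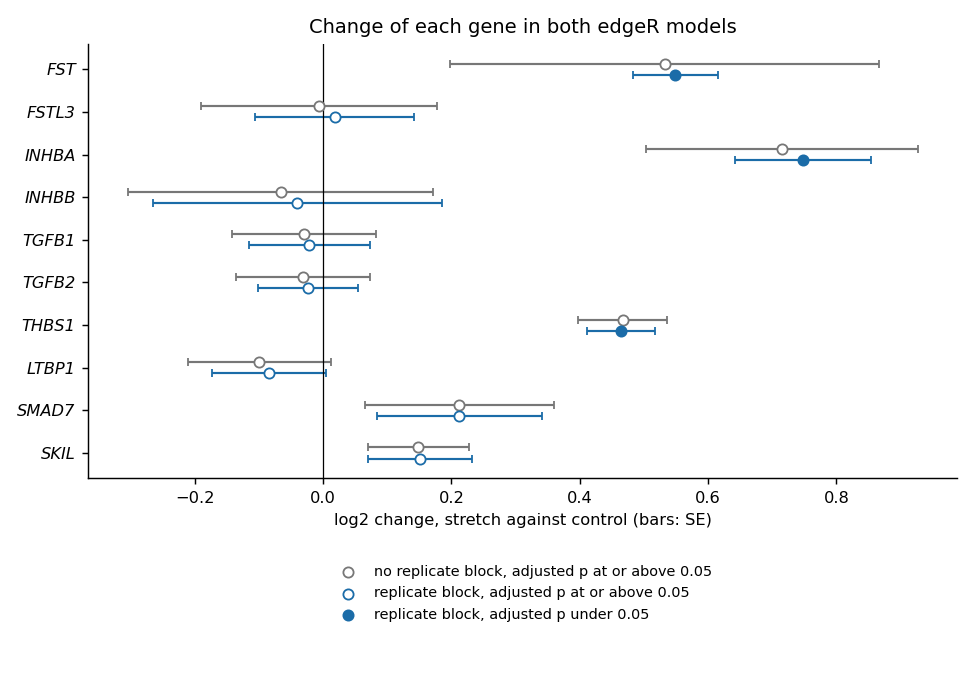
Log2 change of the 10 genes, stretch against control, in the edgeR model without the replicate block (grey) and with it (blue), with bars of 1 SE and filled points for an adjusted p under 0.05. The estimates barely move between the models, while the SE of FST goes from 0.33 to 0.07 and that of INHBA from 0.21 to 0.11.

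Control replicate 3 bears on most of these genes. It was the highest of the 4 control wells for 9 of the 10 (all but THBS1, where it was the lowest), whereas it was the highest for 30.4% of all tested genes. Its depth of 29950328 counts lay within the range of the other wells. Without pair 3 and with the block, INHBA changed by 0.88 ± 0.06, FST by 0.59 ± 0.08 and THBS1 by 0.39 ± 0.03 on the log2 scale, and all 3 passed (edgeR, adjusted p = 6.9e-10, 3.3e-05 and 4.9e-08). The 7 remaining members had changes between 0.02 and 0.37 in that fit, of which SKIL passed. More genes of the whole table passed in that fit than with any other pair left out. Control replicate 3 was picked out as the highest control well for 9 of the 10. Leaving out its pair therefore tends to raise their changes and lends no separate support. What sets this well apart was not tested.

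Because follistatin acts by binding activin, the FST transcript was also set against INHBA within each well, per kilobase of exon. The ratio was 0.972, 1.44, 1.29 and 1.78 in control wells and 0.845, 1.14, 1.35 and 1.42 in stretch wells. The groups overlapped almost completely. On the log2 scale the mean went from 0.42 ± 0.36 to 0.22 ± 0.34 (SD, n = 4 each), a difference of -0.20 (two-sided exact permutation test, p = 0.429, where the smallest possible is 0.0286). The ratio was lower after stretch in 3 of 4 pairs. Within pairs the log2 difference ran from -0.34 to 0.07. The permutation test does not pair the wells, so it keeps the differences between replicate numbers that the block takes out. In that test a shift of the ratio was not detectable beyond the spread between wells, and a paired test was not run.

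Other genes were ranked by how closely their log2 CPM followed FST or THBS1 over the 8 wells, among genes with a mean of at least 1 CPM. The closest to FST were KDM6B (Pearson r = 0.990), a histone demethylase gene, NABP1 (0.987), PSMG3 (0.985), DUSP5 (0.985), a phosphatase gene that acts on ERK, and TBC1D2 (0.985). Of these DUSP5 passed with the replicate block, at 0.41 (edgeR, adjusted p = 0.0297), but not if only 2 levels were blocked (0.793) or none (0.9995), and KDM6B had 0.21 (adjusted p = 0.0945). The closest to THBS1 were SLC5A6 (0.970), a vitamin transporter gene, CHAC1 (0.958), LOC106558648 (0.954), LOC119878118 (0.948) and RUSC2 (0.939). CHAC1, which encodes an enzyme that degrades glutathione, had 0.55 and LOC106558648 had 0.59 in the paired model, with adjusted p of 0.0451 and 0.0494 from edgeR. With 2 levels blocked the adjusted p was 0.0364 for CHAC1 and 0.0694 for LOC106558648, and with none 0.409 and 0.568. Leaving out any 1 pair took both over 0.05 (0.103 to 0.208 for CHAC1 and 0.0929 to 0.204 for LOC106558648), and DUSP5 was lost without pair 1 (0.154) or pair 4 (0.0865). These are the highest of all correlations computed over 8 points, and the points share the group difference and the differences between replicate numbers. Among the members themselves FST followed INHBA (r = 0.812), while THBS1 and LTBP1 ran apart (r = -0.435).

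The wider pathway was read from 6 lists of 98 genes (96 present in the table, 68 tested). Without the block 0 of the 68 passed (edgeR), 8 had an unadjusted p under 0.05 (3.97% of all tested genes did), and with the replicate block 3 passed, all higher: TGFBR2, CCN2 and SNAI2. Of all tested genes 0.7% passed in that model, and 0.528% passed as higher.

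Among ligands other than the members, 2 of 11 genes in the table were tested, GDF11 (0.15 with the block) and GDF9 (-0.37), and neither passed. TGFB3 had 2 to 6 counts per well. INHA, whose product pairs with beta subunits to form inhibins, had 0 counts in every well, and so did NODAL, MSTN and LEFTY1. A count of 0 allows up to 3 counts, or 0.0924 to 0.111 CPM depending on the well.

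Of 8 tested receptor genes 1 rose with the block, against 0.528% of all tested genes. TGFBR2, the type II TGF-beta receptor, had 83.5, 88.4, 93.1 and 91.3 CPM in control wells and 99.5, 101, 111 and 102 CPM in stretch wells, with no overlap between the groups. Its log2 change was 0.22 ± 0.04 in the paired model (edgeR, adjusted p = 0.021, against 0.0305 if only 2 levels are blocked and 0.567 if none). The change was small but nearly equal in all 4 pairs (0.25, 0.19, 0.26 and 0.16). It passed in 9 of 12 fits with the replicate block and was lost without pair 1, 2 or 4 (edgeR, adjusted p = 0.21, 0.0625 and 0.0569). The receptor genes ACVR2A (0.22) and ACVR1 (0.10) did not pass (adjusted p = 0.37 and 0.527). The median log2 change of the 8 was 0.10.

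None of the 18 SMAD, corepressor and ubiquitin ligase genes passed with the block (edgeR). Their median log2 change was -0.01, with SMAD3 at 0.16, SMAD6 at 0.20 and TGIF1 at 0.12 (adjusted p = 0.324, 0.398 and 0.447). The same held for the 13 tested genes of latency, storage and activation, with a median of -0.02, among them ITGB8 (0.08), an integrin subunit that activates TGF-beta, FURIN (-0.08), the protease that cleaves the TGF-beta precursor, and BMP1 (-0.07), a protease of the matrix. Of the thrombospondin relatives THBS3 was at 0.580 CPM in control wells, THBS2 had 2 counts over all wells and THBS4 had 0. Of 5 further antagonist genes 0 passed, with NOG at 0.42, WFIKKN1 at 0.14 and FSTL1 at -0.03.

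Among 22 tested target genes of TGF-beta and activin 2 rose with the block (0.528% of all tested genes did) and 20 did not pass, with a median log2 change of 0.24. The list was not divided by whether the pathway raises or lowers a gene, so this median is no measure of pathway activity. CCN2, which encodes a matricellular growth factor, went from 8.78 ± 3.17 to 18.2 ± 3.41 CPM with a log2 change of 1.07 ± 0.13 in the paired model (edgeR, adjusted p = 0.00194, or 0.0552 if only 2 levels are blocked). It passed in 12 of 12 fits with the replicate block. In edgeR without a block CCN2 did not pass with all wells (adjusted p = 0.496). It passed there once control replicate 2 was left out (1.33, adjusted p = 0.0265), but with no other single well left out. That well was its highest control well, so leaving it out raises the change by construction. SNAI2, a repressor of E-cadherin, had 6.90, 7.54, 13.3 and 8.93 CPM in control wells and 10.7, 16.4, 16.7 and 13.6 CPM in stretch wells. Its log2 change was 0.66 ± 0.11 in the paired model (edgeR, adjusted p = 0.0082, or 0.297 if only 2 levels are blocked), and it was lost without pair 1 (0.0855) or pair 4 (0.0766). TGFBI (-0.16), COL4A1 (0.11) and the inhibitor of differentiation gene ID1 (-0.09), also known targets, did not pass. CCN2 and SNAI2 are known to respond to other signals as well.

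**Figure D4:**
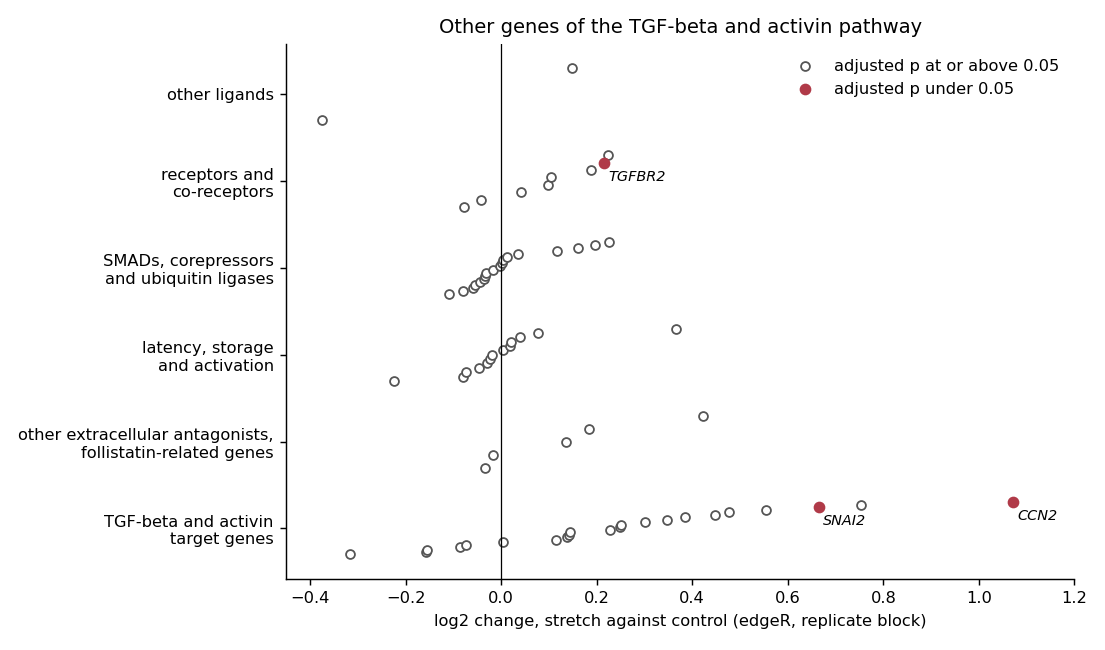
Log2 change with the replicate block for the 68 tested genes of 6 other lists of the pathway (points, ordered by value within a list), filled where the adjusted p was under 0.05. TGFBR2, SNAI2 and CCN2 are the filled points, and the SMAD and latency lists gather around 0.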

How the data were processed

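The authors deposited raw exon read counts for each gene. Per the submitters' processing notes they used featureCounts of Subread, and the notes also list STAR 2.7.3a, Trim Galore 0.6.5 and FastQC 0.11.8. The libraries were stranded and polyA-selected, per the labels' protocols. The genome build, the strand setting and the treatment of multi-mapping reads are not given in the sources used here. Gene positions are those of the table, and all 37291 genes matched by symbol had the same start and end in RefSeq's UU_Cfam_GSD_1.0, which supplied chromosome numbers. Wells of a group differed by more than sampling noise (chi-square per degree of freedom 5.56 to 26.8), so all 8 were kept.

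Counts were tested in R 4.3.3 with edgeR 4.0.16 (quasi-likelihood, TMM factors, filterByExpr with a minimum count of 10 and a minimum total of 15), two-sided, with Benjamini-Hochberg adjustment over all tested genes. The SE is the log2 change divided by the root of F. The replicate number came from the titles. Same-numbered wells correlated in their deviations at 0.199 on average (0.108 to 0.328 over 4 pairs), so the block is given beside the model without it. The labels do not tie a number to a device, plate or day. Control replicates 2, 3 and 4 correlated more closely with a stretch well of another number than with their own. Control 2 had 0.243 with stretch 1 against 0.108 with stretch 2, and control 3 had 0.216 with stretch 4 against 0.182 with stretch 3. Control 4 had 0.189 with stretch 3 against 0.178 with stretch 4. The check thus does not single out same-numbered pairs over a division into replicates 1 and 2 and replicates 3 and 4. DESeq2 1.42.0 and limma 3.58.1 were alternatives. The exon length column of the table, deposited as another kind of value, gave levels per 1000 bases. The scripts were tested on simulated data. Exact permutation used scipy 1.17.1.

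The members, the lists and the alternatives were chosen with earlier results of these data known. Named from the lists were the genes past the threshold in either model and, where fewer than 3 passed, those with the smallest p up to 3. Further genes were named after their values were seen: TGFB3, INHA, NODAL, MSTN, LEFTY1, THBS2, THBS3, THBS4, TGFBI, COL4A1 and ID1. No sequences were used here, and 1 gene of the target list is not reported here by name.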

Additional observations from a re-analysis of the deposited data

Results flagged for a closer look

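Dixon's ratio (the gap of an extreme well to its nearest neighbour over the group's range) passed its 95% critical value in 7 of 56 sets of 4 wells. Chance alone gives about 2.8. INHBA had 55.3 CPM in control replicate 3 against 29.8 to 33.7 in the other control wells, and without this well its log2 change was 0.97. The same well had 2.81 CPM of NOG, a BMP antagonist gene, against 0.661 to 0.964, and 35.0 CPM of BMP1 against 31.1 to 31.7. GDF9 had 0.560 CPM in control replicate 4 against 0.808 to 0.846. CCN2 had 13.5 CPM in control replicate 2 against 6.67 to 7.65. Among stretch wells, ACVR1 had 61.0 CPM in replicate 1 against 68.5 to 69.2, and SMAD6 had 23.5 CPM in replicate 3 against 18.9 to 19.6. Of the 7 values 3 come from control replicate 3.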

How the results depend on the processing

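FST, INHBA and THBS1 were higher after stretch in all 30 alternatives (log2 changes of 0.35 to 0.74, 0.56 to 0.97 and 0.39 to 0.54), and what changed was whether they passed. With the replicate block 102 genes and 3 of the 10 members passed in edgeR, and the members were again 3 with the block in DESeq2 (145 genes), limma-voom (122), no count filter (448), at least 10 counts in every well (97), DESeq2 size factors (105), library size only (111) and upper-quartile factors (112). The last 3 scalings with the block were added after seeing the data. Leaving out 1 pair with the block gave 43, 67, 186 and 74 genes and 2, 2, 4 and 2 members (pairs 1 to 4). The block of 2 levels gave 58 genes and 1 member, DESeq2 without a block 40 and 1, no count filter without a block 11 and 1, replicates 1 and 2 alone 51 and 2, and replicates 3 and 4 alone 25 and 1. Leaving out 1 well without a block gave 0 to 12 genes and 0 to 1 members, the 12 genes and INHBA without control replicate 3 and THBS1 without stretch replicate 4. The cause of these differences was not tested.

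The sign of genes near 0 was not stable. FSTL3 (-0.006 without a block) was 0.018 with the replicate block, 0.021 with 2 levels, 0.023 in limma-voom, 0.025 in DESeq2 with the block, 0.0013 with library size only, 0.0024 with upper-quartile factors, 0.32 in replicates 1 and 2 alone, and with the block 0.020 without a filter, 0.022 with 10 counts, 0.019 with DESeq2 size factors, 0.023 with library size only and 0.024 with upper-quartile factors. Leaving out 1 well without a block gave -0.12 to 0.18 for FSTL3, -0.24 to 0.12 for INHBB, -0.083 to 0.087 for TGFB1, -0.13 to 0.02 for TGFB2 and -0.16 to 0.033 for LTBP1. Other reversals were INHBB at 0.13 and TGFB2 at 0.00013 with the block and without pair 2, FSTL3 at 0.11, INHBB at 0.11, TGFB1 at 0.081, TGFB2 at 0.057 and LTBP1 at 0.025 with the block and without pair 3, and FSTL3 at 0.12 with the block and without pair 4. Replicates 1 and 2 alone gave INHBB at 0.15, TGFB1 at 0.12 and LTBP1 at 0.034, and replicates 3 and 4 alone gave SMAD7 at -0.097. The FST to INHBA ratio kept its direction, with log2 differences of -0.35 to -0.05 when 1 well was left out and -0.20 as the mean over the replicate block.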
